A study of Mus musculus with 2 samples.

Results

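Matrix proteases and their inhibitors were followed across the cells of injured mouse muscle. The members were all genes whose symbol was that of a matrix metalloproteinase (Mmp), a tissue inhibitor of metalloproteinases (Timp), an ADAMTS protease (Adamts) or an ADAMTS-like protein (Adamtsl). This gave 51 of the 27998 genes in the deposited tables, namely 23 MMPs, 4 TIMPs, 19 ADAMTS proteases and 5 ADAMTS-like proteins. The rule used symbols and no measured value.

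MMPs are zinc-dependent proteases that cut collagens, fibronectin, elastin, proteoglycans and cell surface proteins. They are made as inactive precursors and are blocked by TIMPs, which occupy the catalytic site. TIMP2 also has a part in activation, because it links the membrane-type protease MMP14 to the precursor of MMP2. ADAMTS proteases cut proteoglycans such as versican and aggrecan or trim the ends of procollagens, and TIMP3 is the inhibitor best known to act on them. ADAMTS-like proteins share the matrix-binding domains of this family and lack the protease domain. In injured muscle these genes are known for clearing damaged matrix and for letting cells migrate through it.

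The study profiled dissociated tibialis anterior muscle, a muscle at the front of the lower leg, by droplet single-cell RNA sequencing (10x Chromium 3′ chemistry, v3). There were 2 libraries, 1 collected 2 days and 1 collected 7 days after notexin, a snake venom toxin that destroys muscle fibres. Both came from C57Bl/6 mice, with no other allele or agent given, 1 mouse per library. The sample labels gave female mice aged 7 months for both libraries, whereas the cell annotation gave male mice, aged 4 months at day 2 and 7 months at day 7. Y-linked transcripts (Uty, Ddx3y, Eif2s3y, Kdm5d) summed to 6575 counts at day 2 and 4856 at day 7, and Xist held 5 and 1 counts. No uninjured muscle was analysed here. Since each time point had 1 library, no difference could be tested, and time cannot be told apart from mouse, age or library. Intervals in brackets are 95% intervals that cover counting error only.

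The libraries held 41123913 and 32356088 unique molecular identifier (UMI) counts in 4836 and 4889 called barcodes at day 2 and day 7. After the limits on cell quality, 3178 and 3196 cells carried 1 of 25 deposited cell type labels, which were gathered into 12 classes. The libraries shared 4 called barcodes, of which 1 passed the limits. Members held 79122 counts in labelled cells at day 2 and 85620 at day 7. Levels are given as CPM, the count scaled to a total of 1000000 counts of a class in 1 library, so a ratio between days is relative to all RNA of that class. Counts come from transcript 3′ ends, 1 per captured molecule, and were not scaled by transcript length. Scaling by median-of-ratios in place of total counts moved the median log2 ratio of all genes by -0.23 in fibro-adipogenic progenitors (FAPs), by -0.13 in endothelial cells and in monocytes and macrophages, and by -0.18 in smooth muscle cells. Free RNA, called ambient here, was measured in barcodes with 1 to 100 counts.

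The labels were checked against marker genes. FAPs, the mesenchymal cells of muscle that make much of its matrix, had at least 3 counts of the markers Pdgfra, Dcn, Gsn, Col1a1, Lum and Ly6a in 215 of 215 cells at day 2 and 805 of 805 at day 7, where these markers summed to 12847 and 46097 CPM. Monocytes and macrophages held their own markers in 1291 of 1292 and 755 of 757 cells, and endothelial cells in 334 of 336 and 333 of 333. Cells labelled as smooth muscle held markers of both vascular cell types. Their smooth muscle and pericyte markers summed to 2310.4 CPM at day 2 and 4705 at day 7, against 459 and 365 in endothelial cells. Their endothelial markers Pecam1, Cdh5, Kdr, Emcn and Cldn5 summed to 3699 CPM at day 2 and 5146 at day 7, against 4806 and 5941 in endothelial cells, and 203 of 304 and 151 of 232 of them held at least 3 counts of their own markers. Neutrophils were 708 cells at day 2 and 10 at day 7, and 1 of these 10 held at least 3 counts of neutrophil markers, so neutrophils were described at day 2.

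Of the 51 members, 10 MMP genes lie side by side on chromosome 9 within 427 kb (GRCm38.p6, chr9:7272514-7699585), in the order Mmp13, Mmp12, Mmp1b, Mmp3, Mmp1a, Mmp10, Mmp8, Mmp27, Mmp20 and Mmp7. In kept cells 5 of them (Mmp1b, Mmp1a, Mmp10, Mmp20, Mmp7) held no count. Promoter windows from RefSeq were matched for 36 of the 51 members. The 250 bases before the start site were searched on both strands for the AP-1 motif TGANTCA, the binding sequence of Fos and Jun proteins, and for the TATA box TATAAA. The AP-1 motif was found before any listed start for 8 of the 10 cluster genes and for 0 of the other 26 members, against 7.82% of the 27025 genes with a window. The TATA box was found for 7 of the 10 and for 3 of the other 26, against 14.3% of those genes, and the same 7 cluster genes held both. The windows are shown for Mmp3, Mmp12 and Mmp13, which had cells at high counts, for Mmp10, which had none, and for Mmp8, which lacks both motifs. Each is the 120 bases before a start on the plus strand, 5′ to 3′, with matches in capitals, at chr9:7445702-7445821 (Mmp3), chr9:7347254-7347373 (Mmp12, the second of its listed starts), chr9:7272394-7272513 (Mmp13), chr9:7502222-7502341 (Mmp10) and chr9:7558309-7558428 (Mmp8).
Mmp3: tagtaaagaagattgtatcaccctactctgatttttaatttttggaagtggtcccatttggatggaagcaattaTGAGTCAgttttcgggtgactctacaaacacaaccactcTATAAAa
Mmp12: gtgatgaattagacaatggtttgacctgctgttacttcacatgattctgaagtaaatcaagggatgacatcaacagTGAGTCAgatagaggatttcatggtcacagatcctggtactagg
Mmp13: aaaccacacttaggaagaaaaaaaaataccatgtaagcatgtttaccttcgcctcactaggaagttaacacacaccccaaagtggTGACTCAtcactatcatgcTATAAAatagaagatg
Mmp10: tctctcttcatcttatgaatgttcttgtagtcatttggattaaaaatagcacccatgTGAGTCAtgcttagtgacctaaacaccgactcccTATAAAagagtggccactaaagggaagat
Mmp8: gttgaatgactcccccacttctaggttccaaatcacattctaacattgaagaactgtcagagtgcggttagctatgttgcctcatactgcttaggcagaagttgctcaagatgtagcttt
The first base of the AP-1 match lies at position -46 for Mmp3, -44 for Mmp12, -35 for Mmp13 and -63 for Mmp10. Mmp10 carried both motifs and held no count in kept cells of either library. A match describes letters in this window and says nothing of binding, and none was looked for outside it.

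A member was named where it held at least 20 counts in a class of at least 20 cells, which 36 members did, and 20 of these reached 50 CPM in a class of at least 50 cells. The other 15 (Adamts3, Adamts8, Adamts13, Adamts16, Adamts18, Adamts20, Mmp1a, Mmp1b, Mmp7, Mmp10, Mmp20, Mmp21, Mmp24, Mmp25 and Mmp28) held 0 to 89 counts over both libraries. For 6 of them (Adamts13, Mmp1a, Mmp1b, Mmp7, Mmp10 and Mmp20) the count was 0.

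**Figure D1:**
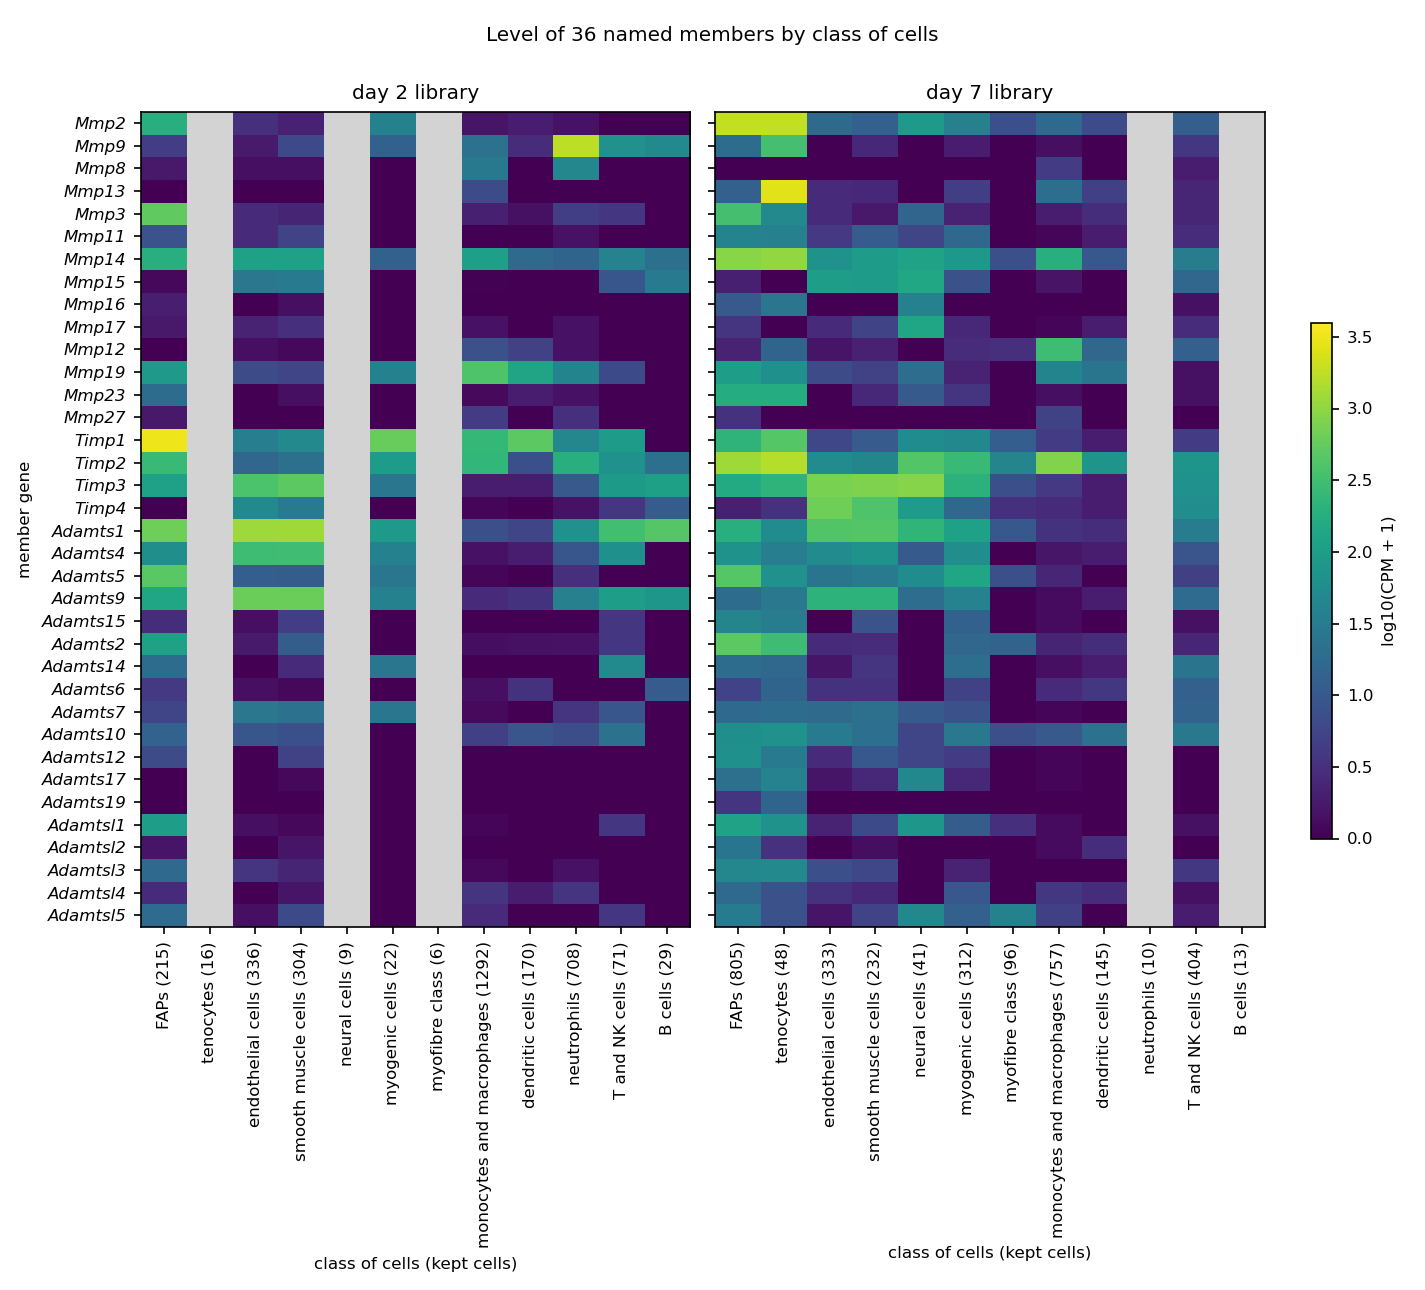
Level of the 36 named members, as log10(CPM + 1), in each class of cells (columns, with the number of cells in parentheses) in the day 2 and the day 7 library. Among classes of at least 20 cells, Timp1 was highest in FAPs at day 2 and Mmp9 in neutrophils at day 2. Tenocytes at day 2 numbered 16, under that limit. Mmp2 and Timp2 were highest in FAPs and tenocytes at day 7.

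Among the inhibitors, Timp1 and Timp2 changed places in FAPs between the libraries. Timp1, a soluble inhibitor of most MMPs that many cells induce under cytokines (chrX:20870166-20874735, plus strand), stood at 3173 CPM [3125, 3223] at day 2 and 215 CPM [205, 225] at day 7, from 16290 and 1749 counts. It was 14.8-fold lower at day 7, for a log2 ratio of -3.89 [-3.96, -3.82]. Timp2, the inhibitor that also takes part in MMP2 activation (chr11:118301069-118355740, minus strand), stood at 267 CPM [253, 281] at day 2 and 1200.5 CPM [1177, 1225] at day 7 and was 4.50-fold higher, with a log2 ratio of 2.17 [2.09, 2.25]. Timp1 thus made up 89.3% of the TIMP counts of FAPs at day 2 and 13.6% at day 7, and Timp2 made up 7.50% and 76.3%.

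Both differences were present in each FAP label. Timp1 stood at 3365 CPM in pro-remodeling, 3547 in adipogenic and 2539 in stem-labelled FAPs at day 2, against 208, 276 and 117 CPM at day 7. Timp2 stood at 184, 357 and 469 CPM in the same order at day 2, against 1042, 1209 and 2704 at day 7. In each library the stem-labelled FAPs therefore had the lowest Timp1 and the highest Timp2 of the 3 labels. With each cell thinned to 2000 counts, 88.7% [83.7, 92.6] of FAPs held Timp1 at day 2 and 24.3% [21.4, 27.5] at day 7, while Timp2 was held by 37.1% [30.6, 44.0] and 85.4% [82.7, 87.8]. Without thinning these shares were 99.5% and 54.0% for Timp1, and 94.9% and 98.8% for Timp2.

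Timp1 was also lower at day 7 in cells of the blood lineage. In monocytes and macrophages Timp1 stood at 246 CPM [239, 254] at day 2 and 3.32 CPM [2.15, 4.91] at day 7, from 4060 and 25 counts, giving a log2 ratio of -6.21 [-6.84, -5.65]. The day 2 level was close to the ambient level of 251 CPM [233, 269], which was 39.7 CPM at day 7. In the same day 2 library endothelial cells held 33.8 CPM and neutrophils 45.7. In values that the authors corrected for ambient RNA with the tool SoupX, the log2 ratio in monocytes and macrophages was -6.77. Thinned to 2000 counts, 28.4% [25.9, 30.9] of monocytes and macrophages held Timp1 at day 2, against 3.92% of endothelial cells. In dendritic cells Timp1 stood at 490.3 CPM [461, 521] at day 2, from 1053 counts, and held 1 count at day 7.

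Timp2 in monocytes and macrophages went the other way, at 244 CPM [236, 251] at day 2 and 815 CPM [795, 836] at day 7, for a log2 ratio of 1.74 [1.68, 1.80]. It was higher at day 7 in all 6 of their labels. The lowest Timp2 at day 2 was in inflammatory monocytes, at 23.8 CPM, and they were again lowest at day 7, at 304 CPM. The highest at day 7 were patrolling monocytes at 1138 CPM and M1 macrophages at 916 CPM. Timp2 made up 49.6% of TIMP counts in monocytes and macrophages at day 2 and 99.0% at day 7. Dendritic cells had 6.52 CPM of Timp2 at day 2 and 71.2 at day 7, both under the ambient levels of 69.4 and 287 CPM.

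Timp3 and Timp4 lay largely in endothelial and smooth-muscle-labelled cells. Timp3, the TIMP that binds to the matrix, stood in endothelial cells at 379 CPM [355, 405] at day 2 and 749.8 CPM [709, 792] at day 7, 1.98-fold higher and just short of the 2-fold limit. Cells labelled as smooth muscle held 497 and 797 CPM of Timp3, FAPs held 115 and 157, and monocytes and macrophages held 0.910 and 2.93. Timp4, known from heart, muscle and fat, was highest in endothelial cells at day 2, at 50.7 CPM [42.2, 60.5]. At day 7 endothelial Timp4 stood at 634 CPM [596, 673], 12.5-fold higher, with a log2 ratio of 3.64 [3.37, 3.92]. Endothelial and smooth-muscle-labelled cells together held the bulk of Timp4, with 44.7% and 46.1% of its 2378 counts at day 7.

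Timp4 followed the vessel labels. At day 7 it stood at 849 CPM in stem-labelled and 673 CPM in capillary endothelial cells, at 383 CPM in 26 arterial cells and at 44.2 CPM in 21 venous cells, where it held 7 counts. Capillary cells had 37.2 CPM at day 2, so that their log2 ratio was 4.18 [3.74, 4.64], and stem-labelled endothelial cells had 86.2 CPM, with a log2 ratio of 3.30 [2.93, 3.69]. The 2 intervals do not overlap, but no test of this difference could be made with 1 library per day. T and NK cells reached 58.1 CPM of Timp4 at day 7, close to the ambient 57.2 CPM, with a count in 4.21% of cells against 69.1% of endothelial cells.

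**Figure D2:**
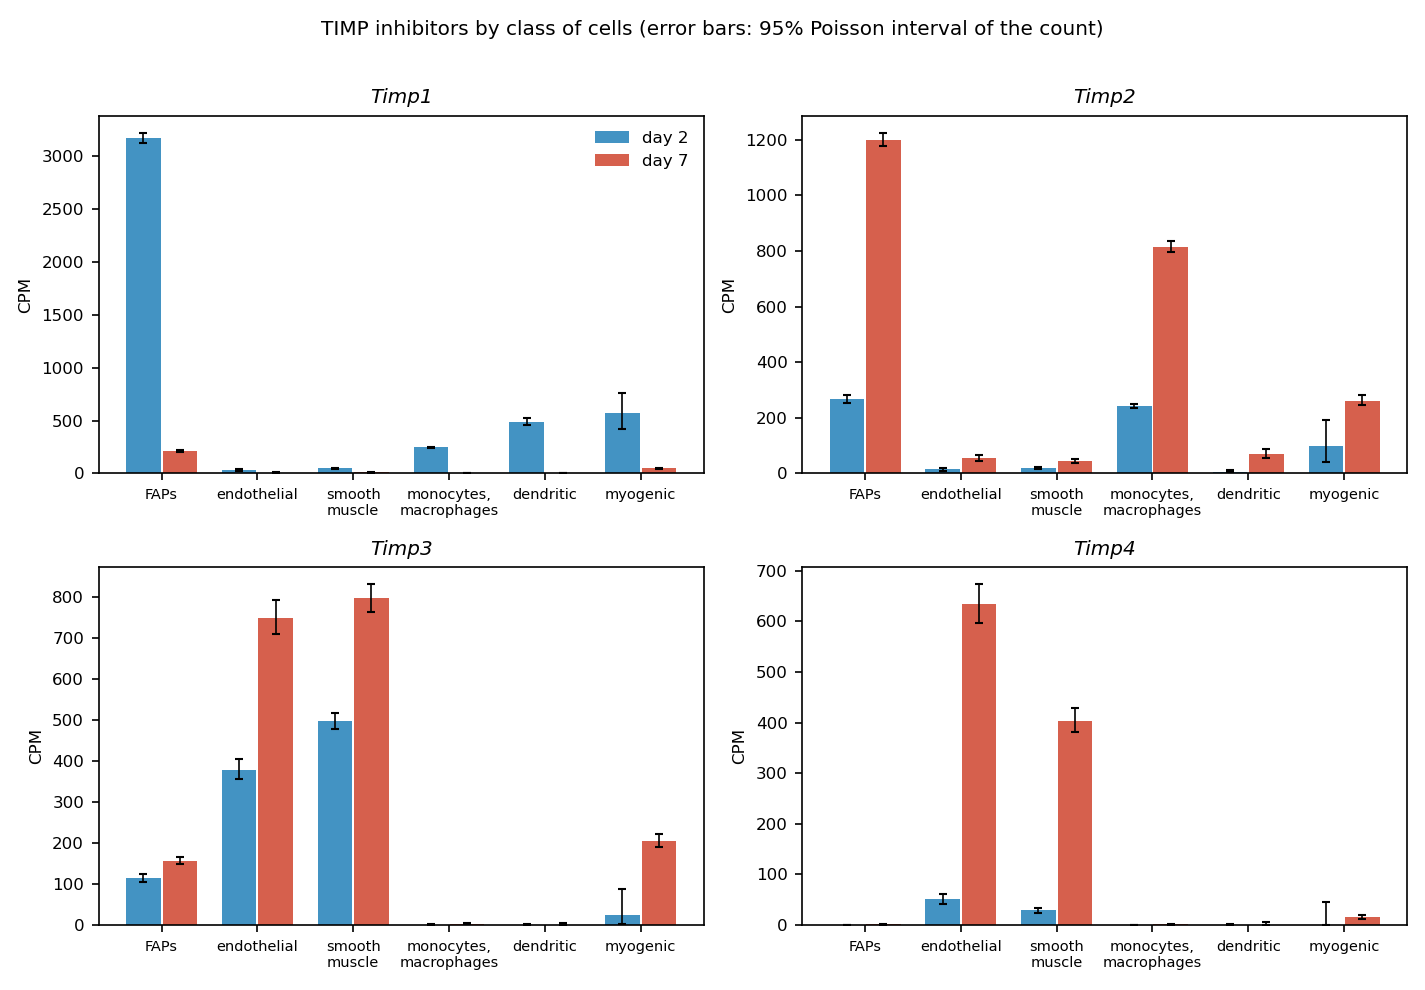
CPM of the 4 TIMP genes in 6 classes of cells at day 2 and day 7, with bars starting at 0 and error bars for the 95% Poisson interval of the count. In FAPs Timp1 went from 3173 to 215 CPM and Timp2 from 267 to 1200.5, and Timp4 was high only at day 7 in endothelial and smooth-muscle-labelled cells among the classes drawn.

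Of the classes compared, FAPs had the most members past the minimum. With at least 20 counts in 1 library required, 31 of the 51 members entered the comparison in FAPs, and 19 of them (61.3%) were at least 2-fold higher at day 7, against 25.7% of all 11419 genes under the same rule. At least 2-fold lower were 3 members (9.68%), against 13.9% of all genes, and 9 were within 2-fold. The median log2 ratio was 2.13 over these members and 0.22 over all genes, with counts under 3 taken as 3. By family, 8 of 10 MMPs were higher and 0 lower, 7 of 13 ADAMTS proteases were higher and 2 lower, 1 of 3 TIMPs was higher and 1 lower, and 3 of 5 ADAMTS-like genes were higher and 0 lower. The 3 lower members were Timp1, Adamts1 and Adamts9. Members below the minimum in both libraries are not in these counts, and in any class a gene could pass through 1 library alone. Of the higher members, Adamts15, Adamts17, Adamts19, Adamtsl2, Adamtsl4, Mmp9, Mmp13, Mmp16 and Mmp17 passed only at day 7, where they were high. All FAPs together held 5133205 counts at day 2 and 8150030 at day 7. The FAPs of the libraries also differed in depth, with medians of 24329 and 8429 counts per cell, and in the 5 tenocyte markers, which summed to 130.1 CPM at day 2, with Fmod and Kera at 0, and to 1114 CPM at day 7, with all 5 counted. The part of either in these ratios was not tested. The 5 myofibre markers summed to 5.26 CPM in day 2 FAPs, with Myh1 and Myh4 at 0, and to 296 CPM in day 7 FAPs, with all 5 counted. They also differed in the other classes compared, with 11.8 and 399 CPM in monocytes and macrophages, 47.4 and 872 in endothelial cells and 25.5 and 310.4 in smooth-muscle-labelled cells, all 5 being counted in each, and their part in the ratios of any class was not tested.

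Mmp2, the gelatinase of connective tissue (chr8:92827291-92853420, plus strand), had the highest level in FAPs of any member at day 7. It stood at 184 CPM [173, 196] at day 2 and 1879.7 CPM [1850.1, 1909.8] at day 7, for a log2 ratio of 3.35 [3.26, 3.45] or 10.2-fold. FAPs held 91.8% of all Mmp2 counts at day 2 and 92.9% at day 7. Thinned to 2000 counts, 31.5% [25.3, 38.2] of FAPs held it at day 2 and 94.9% [93.1, 96.3] at day 7. At day 7 Mmp2 stood at 1947 CPM in pro-remodeling, 1772 in adipogenic and 1522 in stem-labelled FAPs, so the labels were close to each other. Mmp2 in other large classes stayed under the ambient level of 388 CPM at day 7, with 16.7 CPM in endothelial cells and 16.1 in monocytes and macrophages. In SoupX values the log2 ratios of Mmp2 in these classes were 2.35 and 5.05.

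The membrane-type MMPs sit on the cell surface. Mmp14, the activator of pro-MMP2 and itself a collagenase (chr14:54431612-54445364, plus strand), stood in FAPs at 186 CPM [175, 198] at day 2 and 902 CPM [881, 923] at day 7, for a log2 ratio of 2.28 [2.18, 2.37]. Mmp2, Mmp14 and Timp2, whose proteins form the activation complex, were thus all higher in day 7 FAPs, by 10.2, 4.84 and 4.50-fold. Mmp14 had counts in other classes as well. In monocytes and macrophages it stood at 106 and 181 CPM, 1.70-fold apart, and in endothelial cells at 114 and 67.9 CPM, a log2 ratio of -0.74 [-1.07, -0.42]. Ambient Mmp14 stood at 32.4 CPM at day 2 and 146 CPM at day 7, above the day 7 endothelial level. FAPs held 26.1% of Mmp14 counts at day 2 and 74.1% at day 7, and monocytes and macrophages held 47.7% and 13.7%. Such shares of counts move with the number of cells, for every member, since FAPs were 6.77% of labelled cells at day 2 and 25.2% at day 7. With classes of at least 20 cells weighted equally by CPM, the share of Mmp14 in monocytes and macrophages at day 2 was 17.1% and that in FAPs at day 7 was 35.7%, and the share of Mmp2 in FAPs was 81.5% at day 2 and 48.1% at day 7.

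Other MMPs of FAPs, apart from Mmp3, were less abundant than Mmp2 and Mmp14 in both libraries. Mmp23, a short MMP that lacks the usual hinge and haemopexin domain, went from 17.7 CPM [14.3, 21.8] to 166 CPM [158, 175], a 9.38-fold difference. Mmp11, a stromelysin that is activated inside the cell by furin, went from 7.40 to 39.8 CPM, and the membrane-type Mmp16 from 0.974 to 9.20 CPM. Mmp19 differed by less than 2-fold, with 87.1 CPM at day 2 and 100.5 at day 7. Mmp9 went from 3.51 to 17.8 CPM, and its day 2 ambient level of 61.6 CPM lay above the level in FAPs. Mmp13 held 0 counts at day 2 and 97 at day 7, and was at least 20.4-fold higher against a floor of 3 counts over the class, with a lower 95% limit of 4.02 for the log2 ratio and with its day 7 level of 11.9 CPM under the ambient 38.3 CPM.

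Mmp3, the stromelysin that cuts many matrix proteins and activates other pro-MMPs (chr9:7445822-7455975, plus strand), behaved differently from Mmp2. It stood in FAPs at 522 CPM [503, 543] at day 2 and 348 CPM [335, 361] at day 7, for a log2 ratio of -0.59 [-0.66, -0.51], within 2-fold. FAPs held 94.6% and 98.4% of its counts. The labels differed, with 673 CPM in pro-remodeling, 769 in adipogenic and 37.0 in stem-labelled FAPs at day 2, and 185, 1037 and 66.9 CPM at day 7. In pro-remodeling FAPs, the only FAP label with at least 50 cells on both days, the log2 ratio of Mmp3 was -1.87 [-1.97, -1.76]. Its counts came from few cells. At day 2 the highest 7 of 215 FAPs held 50% of them, with 321 in the highest cell, and at day 7 the highest 17 of 805 did. By comparison 50% of the Mmp2 counts at day 7 were spread over 200 of 805 FAPs.

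ADAMTS proteases of FAPs fell into groups that differed between the libraries. Adamts1 and Adamts9, which cut versican, were lower at day 7. Adamts1 stood at 643 CPM [622, 666] and 187 CPM [178, 197], a log2 ratio of -1.78 [-1.87, -1.69], and Adamts9 at 128 and 17.7 CPM, a log2 ratio of -2.86 [-3.13, -2.59]. Adamts5 and Adamts4, the aggrecanases, were within 2-fold, at 482 and 447 CPM for Adamts5 and at 61.2 and 68.3 CPM for Adamts4. Adamts5 was nonetheless uneven by label at day 7, with 1292 CPM in stem-labelled, 499 in adipogenic and 345 in pro-remodeling FAPs, against 487, 275 and 502 CPM at day 2. FAPs held 95.8% of Adamts5 counts at day 2 and 86.0% at day 7, when myogenic cells held 9.72%.

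Higher at day 7 were the procollagen-trimming Adamts2 and several sparse members. Adamts2, which removes the amino-terminal propeptide of fibrillar procollagens (chr11:50602084-50807573, plus strand), stood in FAPs at 114 CPM [105, 123] at day 2 and 497 CPM [482, 512] at day 7, for a log2 ratio of 2.13 [2.00, 2.25]. Its relative Adamts14 stood at 17.7 CPM in FAPs on both days. Adamts12 went from 5.84 to 63.2 CPM, Adamts10 from 12.5 to 60.6, Adamts15 from 1.95 to 42.3 and Adamts7 from 4.68 to 16.2 CPM. Adamts17 had 0 and 167 counts and was at least 35.1-fold higher against the same floor, and the lower 95% limit of its log2 ratio was 4.82. Adamts19 had 0 and 21 counts and was at least 4.41-fold higher on this floor, with a lower 95% limit of 1.71 for the log2 ratio, which is a smaller difference. Adamts6 had 16 and 35 counts, with a log2 ratio of 0.46 [-0.43, 1.41].

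Of the ADAMTS-like proteins, which bind the matrix and several of which are tied to fibrillin microfibrils, Adamtsl1 was the most abundant in FAPs at 101 and 119 CPM, within 2-fold. Adamtsl2 went from 3 to 194 counts, with a log2 ratio of 5.35 [3.78, 7.64]. Adamtsl4 was 9.10-fold higher, from 1.75 to 16.0 CPM, and Adamtsl3 was 2.84-fold higher, from 16.0 to 45.4 CPM. Adamtsl5 was at 17.1 and 29.6 CPM. Adamtsl1 overlaps Sh3gl2 on the same strand in the annotation, so a read in the shared stretch may fit both genes. The same holds for Timp2 and Cep295nl.

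Summed over the family, FAPs had 3555 CPM of TIMPs and 1012 CPM of MMPs at day 2, and 1573 CPM of TIMPs and 3485 CPM of MMPs at day 7. This was 3.51 [3.40, 3.62] TIMP counts for each MMP count at day 2 and 0.451 [0.442, 0.461] at day 7. Endothelial cells did the opposite, with 3.07 [2.73, 3.46] and 6.95 [6.21, 7.80] TIMP counts per MMP count, and monocytes and macrophages had 0.854 [0.829, 0.879] and 1.45 [1.39, 1.51]. The summed ADAMTS level of FAPs was 1478 CPM at day 2 and 1450.3 at day 7, although its members differed in both directions.

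**Figure D3:**
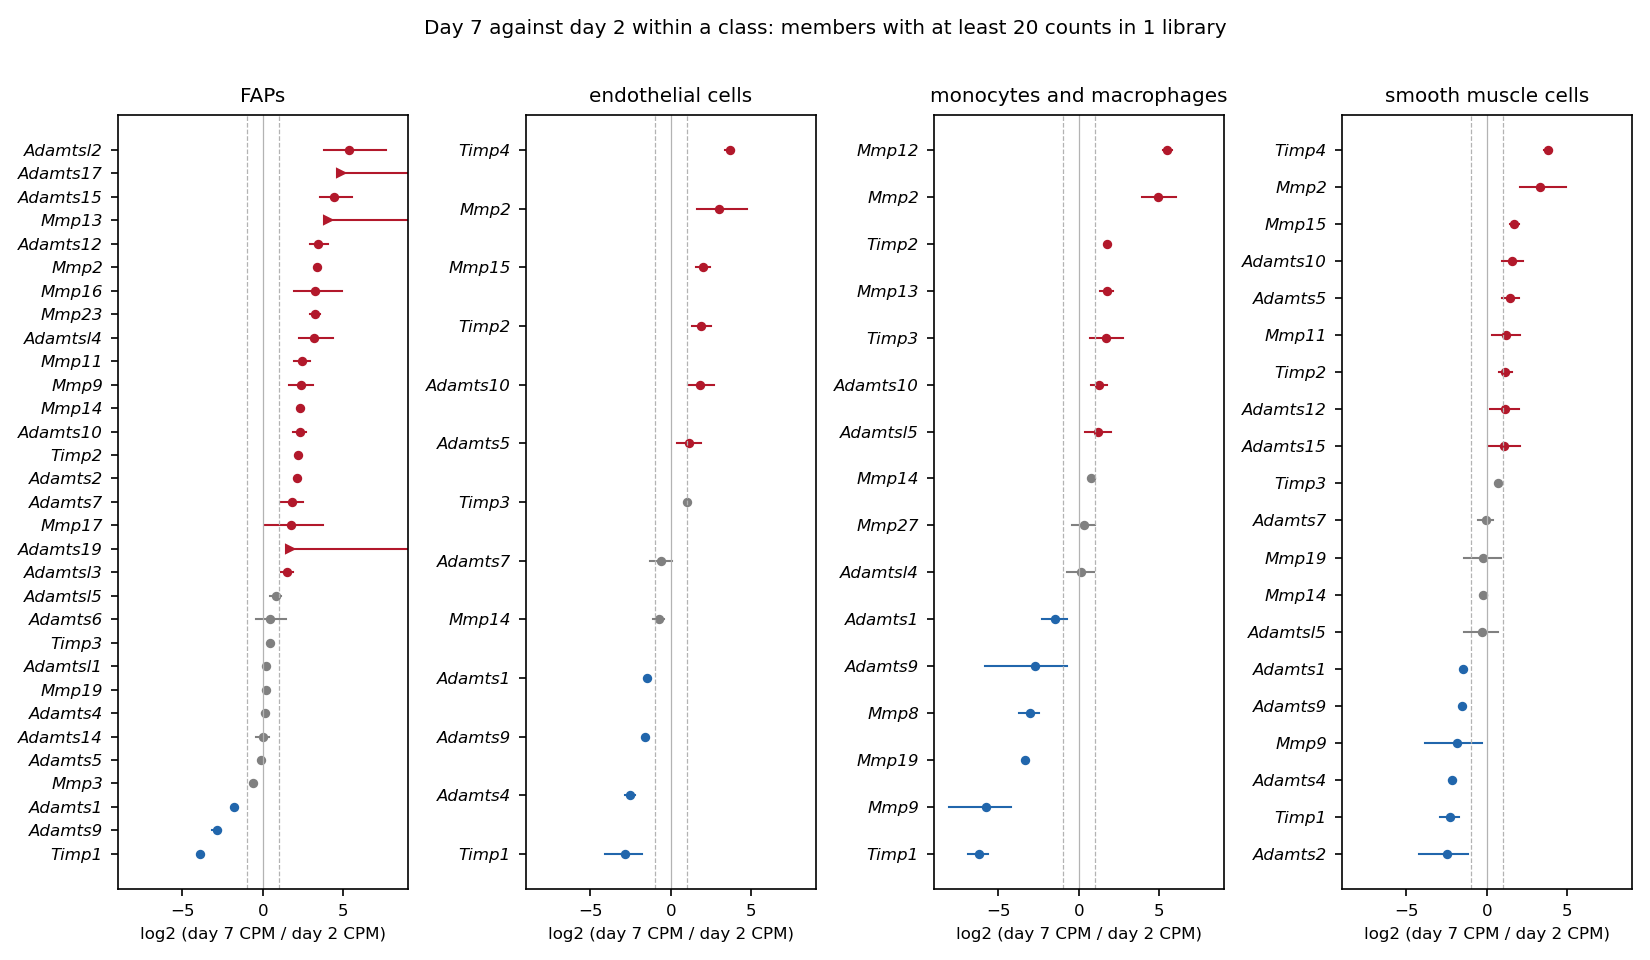
Log2 ratio of day 7 CPM to day 2 CPM, with its 95% counting interval, for the members with at least 20 counts in 1 library in FAPs, endothelial cells, monocytes and macrophages, and smooth-muscle-labelled cells. In FAPs 19 members lie at least 2-fold to the right and 3 to the left, and Timp1 lies to the left in all 4 classes.

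Monocytes and macrophages held other members. Here 16 members passed the minimum of 20 counts, of which 7 (43.8%) were at least 2-fold higher at day 7, against 17.7% of all 10782 genes, and 6 (37.5%) at least 2-fold lower, against 13.3% of all genes. Their median log2 ratio was 0.54, against -0.05 over all genes. Dendritic cell markers in this class summed to 635 CPM at day 2, with Zbtb46 at 0, and 8082 CPM at day 7, with all 6 counted, and their part in these ratios was not tested. Of the 7 higher members, 5 (Adamts10, Adamtsl5, Mmp13, Mmp2 and Timp3) lay under their ambient level at day 7, and of the 6 lower members, 4 (Adamts1, Adamts9, Mmp9 and Timp1) lay under theirs at day 2. With SoupX values the ratio of Adamts9 was within 2-fold. Mmp19, an MMP known from myeloid and vascular cells (chr10:128790910-128800824, plus strand), had the highest level of the MMP and ADAMTS members in these cells at day 2. It stood at 402 CPM [392, 412] at day 2 and 40.6 CPM [36.1, 45.4] at day 7, from 6623 and 305 counts, giving a log2 ratio of -3.31 [-3.48, -3.14]. Inflammatory monocytes had the highest Mmp19 at day 2, 605 CPM, and all 6 labels were between 224 and 605 CPM then and between 22.0 and 65.6 CPM at day 7. Ambient Mmp19 was 129 CPM at day 2 and 27.2 at day 7. Monocytes and macrophages held 88.7% of Mmp19 counts at day 2, while FAPs held 67.9% of them at day 7. With classes weighted equally these shares were 56.7% and 38.9%. Thinned to 2000 counts, 43.3% [40.6, 46.1] of monocytes and macrophages held it at day 2 and 6.51% [4.85, 8.51] at day 7.

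Mmp12, the macrophage elastase (chr9:7344381-7369499, plus strand), was the opposite. It stood at 6.73 CPM [5.54, 8.11] at day 2 and 300.3 CPM [288, 313] at day 7, from 111 and 2258 counts, giving a log2 ratio of 5.48 [5.20, 5.77] or 44.6-fold. The day 7 counts were concentrated in few cells. The highest 6 of 757 cells held 50% of them, and the highest cell alone held 332. These 6 cells were labelled patrolling monocytes (4) and M1 macrophages (2). The labels with the highest Mmp12 were patrolling monocytes at 707 CPM and M1 macrophages at 335, whereas M2 macrophages low in Cx3cr1 had 3.46 CPM. Mmp12 was held by 18.8% of the class at day 7, and its level without the highest cell was 257 CPM. Weighting each cell equally gave a log2 ratio of 4.60.

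The remaining MMPs of these cells were at lower levels. Mmp8, the neutrophil collagenase, was at 27.4 CPM at day 2 and 3.32 at day 7. Mmp9 was at 21.4 and 0.399 CPM, from 353 and 3 counts, a log2 ratio of -5.75 [-8.03, -4.19], and its day 2 level was under the ambient 61.6 CPM. Mmp13 was at 5.76 and 19.0 CPM, and Mmp27 at 3.21 and 3.99. Mmp8 and Mmp27 lie next to each other in the chromosome 9 cluster and monocytes and macrophages held 452 of the 548 Mmp8 counts at day 2. ADAMTS proteases were low here, with 13.9 and 18.1 CPM over the whole family.

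Mmp9, the gelatinase stored in neutrophil granules (chr2:164940780-164955850, plus strand), lay mostly in neutrophils at day 2. The 708 neutrophils held 3406 of its 3841 counts, 88.7% [87.6, 89.7], at 1749 CPM [1690.4, 1808]. It was found in 80.4% of neutrophils, whose median depth was 2351 counts, and in 8.44% of monocytes and macrophages, with a median of 11696. The counts were spread, since 142 of the 708 cells were needed for 50% of them. Mmp8 reached 45.7 CPM in neutrophils, and the MMP family as a whole 1863 CPM. At day 7 Mmp9 had 319 counts in all labelled cells, 48.9% of them in tenocytes and 45.5% in FAPs.

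Among the members, ADAMTS proteases had the highest summed level in endothelial cells at day 2, 2171 CPM against 478 of TIMPs and 156 of MMPs. In them 13 members passed the minimum, and 6 (46.2%) were at least 2-fold higher at day 7, against 13.9% of all 8731 genes, while 4 (30.8%) were at least 2-fold lower, against 9.98% of all genes. The median log2 ratio was 0.98, against 0.02 over all genes. Basophil and mast cell markers summed to 144 and 25.0 CPM under this label, with at least 3 such counts in 46 of 336 cells at day 2 and 3 of 333 at day 7. Mcpt8, Cpa3 and Ms4a2, defining markers of those cells, were at 0 under this label in both libraries. Of the 6 higher members, 4 (Adamts10, Adamts5, Mmp2 and Timp2) lay under their ambient level at day 7, and of the 4 lower ones Timp1 lay under its day 2 level. Adamts1, a versicanase with anti-angiogenic activity (chr16:85793827-85803113, minus strand), stood at 1192 CPM [1149, 1236] at day 2 and 420.2 CPM [389.7, 452] at day 7, for a log2 ratio of -1.50 [-1.62, -1.38]. Adamts9 stood at 626 and 209 CPM, a log2 ratio of -1.58 [-1.75, -1.41], and Adamts4 at 307 and 53.6 CPM, a log2 ratio of -2.52 [-2.85, -2.20]. All 3 were lower at day 7 in capillary, stem-labelled, arterial and venous cells alike. Arterial cells had the highest Adamts1 in both libraries, at 1570.4 CPM in 15 cells and 952 CPM in 26 cells.

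On the other side, Mmp15, a membrane-type MMP, stood in endothelial cells at 25.6 CPM [19.6, 32.8] at day 2 and 103 CPM [88.3, 119.7] at day 7, for a log2 ratio of 2.01 [1.59, 2.45]. Like Timp4, it was held mostly by vascular cells, with 32.7% of Mmp15 counts in endothelial and 49.0% in smooth-muscle-labelled cells. Adamts10 went from 8.25 to 29.2 CPM, Adamts5 from 11.1 to 24.4 and Timp2 from 14.4 to 53.6. These 3 day 7 levels lay under the ambient levels of 43.5, 56.6 and 287 CPM. Adamts7 was at 25.6 and 16.7 CPM, with a log2 ratio of -0.62 whose interval [-1.31, 0.05] includes 0.

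In cells labelled as smooth muscle 20 members passed the minimum. Of these 9 (45.0%) were at least 2-fold higher at day 7, against 12.9% of all 10326 genes, and 6 (30%) at least 2-fold lower, against 8.11% of all genes. The median log2 ratio was 0.30, against 0.07 over all genes. Basophil and mast cell markers summed to 71.3 and 26.6 CPM under this label, with at least 3 such counts in 51 of 304 cells at day 2 and 7 of 232 at day 7, and Mcpt8, Cpa3 and Ms4a2 at 0 in both libraries. Of the 9 higher members, 6 lay under their ambient level at day 7 (Adamts10, Adamts15, Adamts5, Mmp11, Mmp2 and Timp2), and of the 6 lower ones Mmp9 and Timp1 lay under theirs at day 2. Timp4 stood at 28.8 and 404 CPM, Mmp15 at 29.2 and 95.6, Adamts1 at 1213 and 434, Adamts9 at 617 and 213 and Adamts4 at 311 and 70.5 CPM. How far the endothelial transcripts under this label account for these values was not tested. A narrower set was the 83 and 89 cells with at least 3 smooth muscle and pericyte marker counts and more of these than endothelial ones. In it the log2 ratio was 4.13 for Timp4, 1.73 for Mmp15, -1.23 for Adamts1, -1.58 for Adamts9 and -2.28 for Adamts4. In these fewer cells 13 members passed the minimum, in place of 20, and 9 of the 13 were at least 2-fold apart. Mmp9 was not among the 13, with 1 and 4 counts and an interval of its log2 ratio of [-0.74, 8.22].

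**Figure D4:**
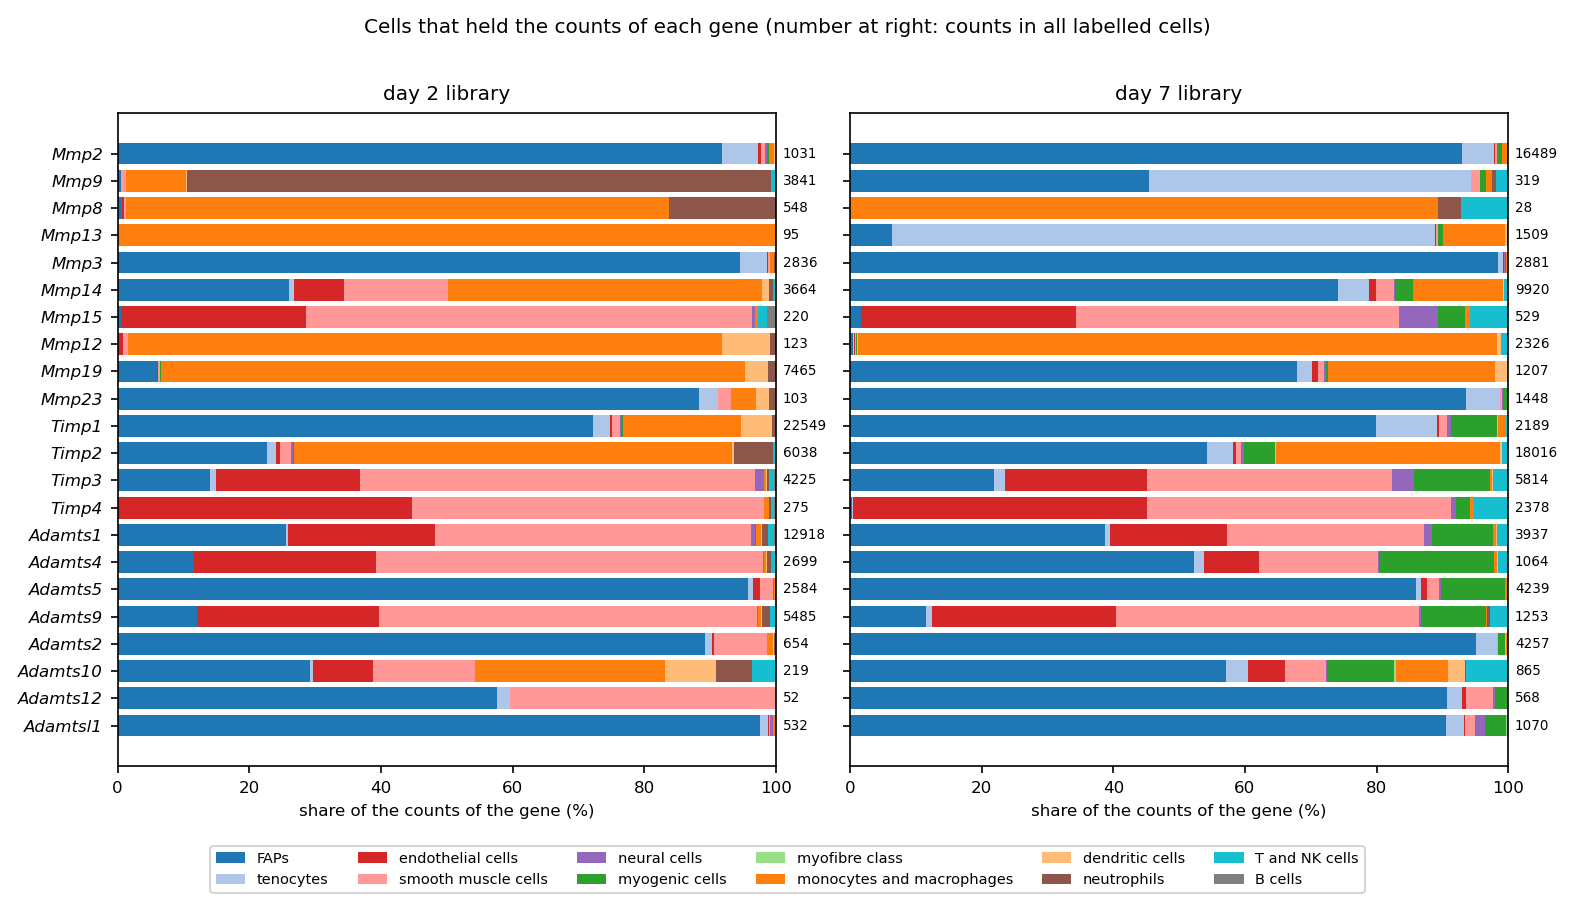
Share of the counts of each gene, in %, that lay in each class of cells, per library, with the number of counts at the right. Mmp2, Mmp3 and Adamts5 lay mostly in FAPs on both days, Mmp19 mostly in monocytes and macrophages at day 2 and in FAPs at day 7, and Mmp9 mostly in neutrophils at day 2.

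Tenocytes, the cells of tendon, numbered 48 at day 7, under the 50 cells set for a comparison, and are described after their values were seen. They held 82.4% [80.4, 84.3] of the 1509 Mmp13 counts of the day 7 library. Mmp13, a collagenase that cuts fibrillar collagen (chr9:7272514-7283331, plus strand), reached 2782 CPM there, from 1243 counts in 10 of the 48 cells. A single cell held 724 of these counts, and 1250.1 CPM remained without it. Of the 10 cells, 8 held at least 20 counts of Mmp13, and all 8 held at least 3 counts of tenocyte markers. The cell with 724 Mmp13 counts also held 151 of the 156 Mmp9 counts of tenocytes and 112 Mmp14 counts, at a total of 31636. It had 183 counts of Thbs4 and none of Tnmd or Fmod, both tenocyte markers. At least 3 counts of tenocyte markers were held by 39 of the 48 cells. Under this label FAP markers summed to 29490.4 CPM and tenocyte markers to 15508 CPM at day 7, and the part of FAP transcripts in these levels was not tested. Tenocytes at day 7 also held 1838 CPM of Mmp2, 1578 of Timp2, 1036 of Mmp14 and 168 of Mmp23, against 1879.7, 1200.5, 902 and 166 CPM in FAPs.

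**Figure D5:**
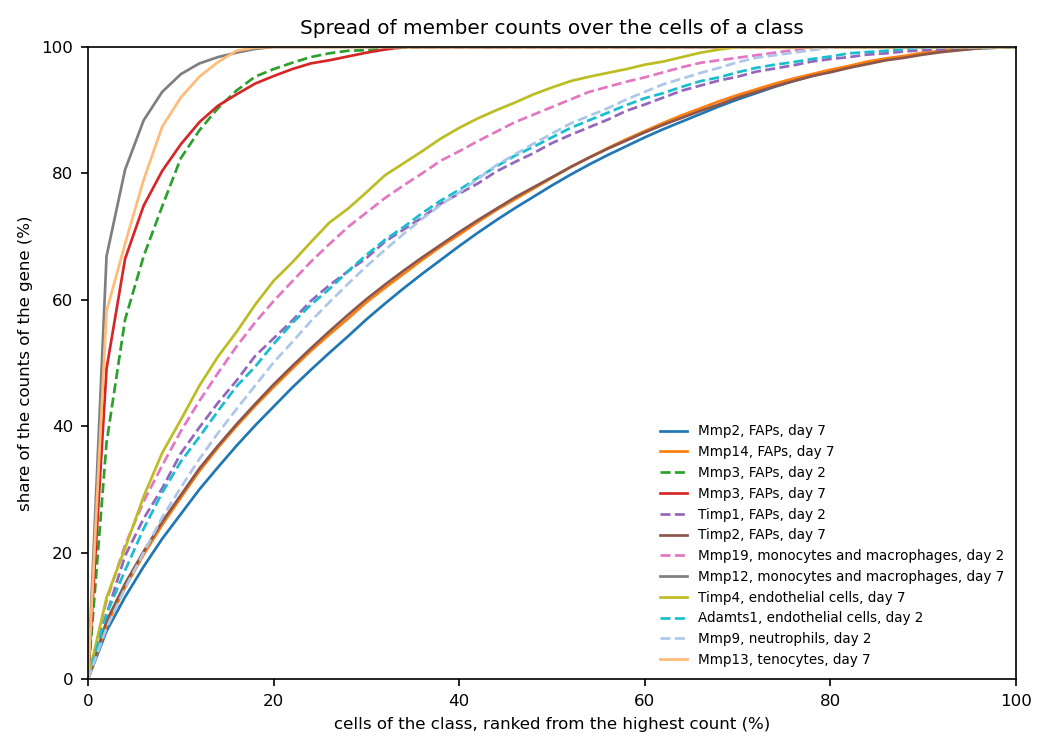
Share of the counts of a gene, in %, held by the cells of a class ranked from the highest count (% of cells), for 12 gene and class pairs. For 50% of the counts, Mmp13 in tenocytes needed 1 of 48 cells and Mmp12 in monocytes and macrophages 6 of 757, whereas Mmp2 in FAPs needed 200 of 805.

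Myogenic cells were 22 at day 2, too few to compare, and 312 at day 7. At day 7 they held Timp2 at 262 CPM, Timp3 at 206, Adamts5 at 128, Adamts1 at 113, Mmp14 at 81.4 and Adamts4 at 57.6 CPM. Of these Timp2 was under its ambient level of 287 CPM and Mmp14 under its 146 CPM, while Timp3, Adamts5 and Adamts4 were above their 95.4, 56.6 and 11.3 CPM and Adamts1 was near its 109 CPM. Neural cells at day 7, 41 in number, had the highest Timp3 of all classes of at least 20 cells, 886 CPM [764, 1021], whose interval overlaps that of smooth-muscle-labelled cells [764, 831]. They also held Mmp17, a membrane-type MMP, at 135 CPM [90.6, 194], and Mmp15 at 145 CPM [98.2, 205]. Among lymphocytes Adamts14 was found in NK cells, at 199 CPM with 18 counts in 21 cells at day 2 and at 85.5 CPM [61.6, 116] with 42 counts in 111 cells at day 7. T cells held 0 counts of Adamts14 in 50 cells at day 2 and 7 counts in 293 cells at day 7. Of the 71 T and NK cells at day 2, 27 held at least 3 counts of their own markers and 19 at least 3 of basophil and mast cell markers. The part of this in the day 2 level was not tested.

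Other genes of matrix proteolysis were taken from a list of 52. In FAPs 39 of them passed the minimum, with 17 at least 2-fold higher and 6 lower at day 7, against 25.7% and 13.9% of all genes. The plasminogen system is another route of pericellular proteolysis. Plau, the urokinase, was at 321 and 106 CPM and its receptor Plaur at 129 and 16.1, while the tissue activator Plat was at 70.7 and 214. Serpine2 was within 2-fold, at 347 and 449 CPM. Of the 4 genes of carboxy-terminal procollagen processing that passed, 2 were higher, the proteinase Bmp1 at 117 and 375 CPM and its enhancer Pcolce at 502 and 1596. The other 2 were within 2-fold, Pcolce2 at 84.4 and 77.9 CPM and Tll1 at 2.92 and 3.44. Of the cathepsins, Ctsk, a collagenolytic lysosomal protease, was at 84.4 and 843 CPM, Ctsd at 191 and 422 and the cathepsin inhibitor Cst3 at 632 and 2991. Ctsb, Ctsl, Ctss and Ctsz were within 2-fold. Of the 7 ADAM proteases, which shed proteins from the cell surface, Adam19 was at 26.5 and 152 CPM, Adam17 at 33.1 and 76.3 and Adam8 at 8.57 and 2.58, and the other 4 were within 2-fold. Among MMP regulators, Thbs2, which carries MMP2 to uptake by LRP1, was at 57.1 and 202 CPM, Pcsk6 at 28.6 and 124, Tfpi2 at 32.3 and 66.9 and Thbs1 at 628 and 165. Lrp1, at 432 and 798 CPM, was within 2-fold, as were Bsg and Furin. Of the substrates, Fn1 was at 398 and 2502 CPM and Eln at 29.0 and 234, while Vcan, the substrate of Adamts1 and Adamts9, was at 341 and 354 CPM and Fbn1 at 634 and 927.

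In monocytes and macrophages 33 of the 52 passed, with 10 higher and 14 lower, against 17.7% and 13.3% of all genes. The cysteine protease Ctss was at 1954 and 6211 CPM and Cst3 at 1381 and 3021, whereas Ctsl was at 2687 and 1229. Ctsb, Ctsd and Ctsz were within 2-fold. The sheddase Adam8 was at 475 and 87.1 CPM, Adam9 at 94.1 and 42.0 and Adam15 at 120 and 58.8, while Adam10 and Adam17 were within 2-fold. Plaur was at 360.2 and 149.9 CPM and Thbs1 at 2868 and 71.8, with Bsg, Furin and Lrp1 within 2-fold. Of the 3 substrates that passed, Vcan was at 397 and 1.99 CPM and Fn1 at 1705 and 177, while Fbn1 was higher at day 7, at 1.64 and 4.26 CPM. In endothelial cells 24 passed, with 6 higher and 5 lower, against 13.9% and 9.98% of all genes, among them Plaur at 392 and 41.1 CPM, Plau at 63.1 and 15.5, Thbs1 at 201 and 34.6, Adam10 at 57.3 and 136, Fn1 at 28.0 and 69.7, Eln at 19.0 and 67.9 and Cst3 at 432 and 1244. In smooth-muscle-labelled cells 30 passed, with 2 higher and 5 lower, against 12.9% and 8.11% of all genes, among them Plaur at 305 and 40.2 CPM, Thbs1 at 189.5 and 38.4 and Cst3 at 463 and 1159.5.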

How the data were processed

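Single-cell 3′ libraries of 2 samples were analysed, 1 per time point. For both, the authors deposited tables of raw UMI counts, which are whole numbers, for called barcodes and for all barcodes, aligned to mm10. The file headers name Cell Ranger 3.0.1, and the submitters' processing notes name Cell Ranger 3.1.0 and Seurat 3.1.5. Ambient-corrected (SoupX) matrices deposited by the authors hold estimated counts, used unrounded, and a further table gives a cell type for each annotated barcode. Per the methods of the study, doublets were removed with DoubletFinder before annotation, and no doublet caller was run here.

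Barcodes in that table were kept when their SoupX values showed 750 or more genes, 1000 or more transcripts and a mitochondrial share of no more than 30%. This left 3208 and 3221 cells (medians of 9010 and 6557 counts), 3178 and 3196 with a cell type. Uncorrected counts were summed per class and library. All intervals are exact, at 95%: Poisson for CPM, Clopper-Pearson for shares and conditional binomial for ratios. Cells were not treated as replicates, and no p-value was computed. Genes needed 20 counts in a class in 1 library, a call was a 2-fold ratio, and classes needed 50 cells in both libraries. For calls, medians and the alternatives, counts under 3 were set to a floor of 3 counts per library. Other printed ratios used the counts as they were, and the at-least folds used this floor for a count of 0. For comparison of shares, cells were thinned to 2000 counts, which left out 201 and 118 cells.

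A member was named with at least 20 counts in a class of at least 20 cells, and described in full at 50 CPM or more in a class of at least 50 cells. Of the list of 52 other genes, those at 50 CPM or more and at least 2-fold apart in a class are given by value there. The values of 1 gene counted in that list are not reported here. The members, lists and rules were chosen with earlier results of these data known. Alternatives were SoupX values, no and stricter cell limits (1000 genes, 2000 transcripts, 15% mitochondrial), the mean over cells of CPM, median-of-ratios and TMM scaling, minimum counts of 1 and 50, a 3-fold call, classes weighted equally for shares of counts, and thinning or a minimum of 2 counts for shares of cells. Gene coordinates and overlapping genes came from the GENCODE annotation (vM21), and promoter windows from RefSeq, GRCm38.p6. Python 3.11.15, numpy 2.4.6, scipy 1.17.1, pandas 2.3.3, matplotlib 3.10.9, R 4.3.3 and edgeR 4.0.16 (TMM factors only) were used.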

Additional observations from a re-analysis of the deposited data

Results flagged for a closer look

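Members with at least 2-fold ratios in opposite directions in different classes were Adamts2 and Mmp9. Adamts2 had a log2 ratio of day 7 to day 2 of 2.13 in FAPs, from 584 and 4048 counts, and of -2.49 in smooth-muscle-labelled cells, from 53 and 5 counts. Its levels were 114 and 497 CPM in FAPs and 10.4 and 1.85 CPM in smooth-muscle-labelled cells. Ambient Adamts2 stood at 7.53 CPM [4.77, 11.3] at day 2 and 66.2 CPM at day 7. Mmp9 had a log2 ratio of 2.34 in FAPs, against -5.75 in monocytes and macrophages, -1.84 in smooth-muscle-labelled cells and -4.54 in T and NK cells. The day 2 Mmp9 levels of these 4 classes were 3.51, 21.4, 5.29 and 66.1 CPM, and ambient Mmp9 stood at 61.6 CPM at day 2 and 8.05 CPM at day 7. In the smooth-muscle-labelled cells chosen by marker counts, Mmp9 held 1 and 4 counts, under the minimum. The interval of its log2 ratio there was [-0.74, 8.22]. In T and NK cells the day 2 level without the highest cell was 14.7 CPM. Of the 71 T and NK cells at day 2, 27 held at least 3 counts of their own markers and 19 at least 3 counts of basophil and mast cell markers, against 291 and 5 of 404 at day 7, and the part of this in the ratio was not tested. With 1 library per time point, these differences between classes were not tested.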

How the results depend on the processing

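The number of members at least 2-fold apart was 22 in FAPs and lay between 20 and 29 over the alternatives. It was 10 in endothelial cells (7 to 13), 13 in monocytes and macrophages and 15 in smooth-muscle-labelled cells. A minimum of 1 count gave 29 in monocytes and macrophages and 25 in smooth-muscle-labelled cells, by construction, since more genes entered. In the latter cells a 3-fold call gave 7. A further alternative, chosen after seeing the data, took the cells with at least 3 smooth muscle and pericyte marker counts and more of these than endothelial ones. It gave 9 of the 13 members that still passed the minimum in place of 20. There Mmp9 went from -1.84 to 1.01, on 1 and 4 counts with the 1 set to the floor of 3. Of 80 ratios of members in the 4 classes, 77 kept their side of the 2-fold limit and their direction with SoupX values, and 77 did so with each of the mean over cells of CPM, median-of-ratios and TMM scaling. With stricter cell limits 79 did, and with no limits 80. Of the 20 ratios in the marker-positive cells 15 did, including those of members under the minimum there. Of 44 shares of counts, 38 moved beyond their counting interval with classes weighted equally, 5 each with SoupX values and stricter cell limits, and 2 with no limits. Of 20 shares of cells with a count, 18 moved when 2 counts were required and 20 when cells were thinned. Adamts9 in monocytes and macrophages was at -0.44 with SoupX values, and Timp2 in smooth-muscle-labelled cells at 0.97. The cause of these differences was not tested. No paired analysis was possible because each time point had 1 library, and no replicate could be left out. Depth limits members with under 20 counts.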

Other observations

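Called barcodes that the annotation did not list, 1299 at day 2 and 1473 at day 7, held 14796 and 6440 member counts. In them Timp1 stood at 819.5 CPM at day 2 and 49.8 at day 7, Timp2 at 174 and 289, Timp4 at 5.30 and 137, and Mmp19 at 169.6 and 9.87. Mmp10, which held no count in labelled cells, had 1 count there at day 2. B cells (29 at day 2) held 44 counts of Adamts1, or 443 CPM, and 266 CPM remained without the highest cell. T and NK cells at day 2 held 325 CPM of Adamts1, and 116 CPM remained without the highest of their 71 cells. Ambient Adamts1 stood at 202 CPM at day 2. Endothelial markers summed to 1078 CPM in these B cells and 959 CPM in these T and NK cells, and neutrophil markers to 3837 CPM in the B cells. The part of these in the Adamts1 levels was not tested.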
